A study of Homo sapiens with 44 samples.

Results

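The baseline expression of THP-1 was described from the 3 THP-1 arrays that carried a scrambled control hairpin, set against the 9 control arrays of HL-60, MOLM-14 and U937 (3 arrays per line), out of 44 arrays in the series. The 3 other lines had equal weight in the comparison. The study infected these 4 acute myeloid leukemia (AML) cell lines with the control hairpin or with hairpins that target GSK3A or GSK3B, which code for the 2 paralogs of the kinase GSK-3, and measured RNA on Affymetrix human genome arrays. For each target 2 hairpins were used, with 2 arrays per hairpin and line, which gives 32 hairpin arrays (8 of THP-1 and 24 of the other lines). Their means do not enter the control comparison. They were normalized together with the control arrays, and they add to the estimate of spread behind its standard errors and p-values. All groups share the infection, growth in serum-supplemented RPMI medium, puromycin at 1 µg per mL from 48 h after infection, and RNA extraction 48 h later, so no array shows uninfected cells. Each group is 1 cell line, and a difference between THP-1 and the others is a difference between lines, not between types of leukemia.

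THP-1 is an acute monocytic leukemia line that can be driven to macrophage-like cells, and it is widely used as a model of human monocytes. Like MOLM-14 it carries a fusion of KMT2A, a histone methyltransferase gene, with MLLT3. Fusions of this kind keep HOXA genes and their cofactors such as MEIS1 and PBX3 active in many leukemias. HL-60 is a promyelocytic line with abundant primary granule enzymes, and U937 is a myelomonocytic line. Monocytes are known for Fc receptors and their adaptors, for chemokine receptors that bring them into tissue, for lysosomal proteases and for a ready interferon response.

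Levels are given as deposited intensity, the brightness summary of a gene's probe set on a linear scale, and they compare arrays for 1 gene, not genes with each other. Differences are THP-1 minus the mean of the other lines on the scale of log2(intensity + 16) after quantile normalization, with the standard error after ±, from a limma fit over 12165 genes with Benjamini-Hochberg adjustment and a threshold of 0.05. The added 16 makes the difference of a dim gene smaller than its ratio of intensities, and the files used here hold no detection call, so intensities near 10 may be background. A gene is called apart in THP-1 where the test was passed, the difference was at least 1 (2-fold), and the 3 THP-1 arrays lay above, or below, all 9 other control arrays.

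The THP-1 arrays had median intensities of 22.4 to 22.8, and those of the other lines ranged from 19.6 (HL-60) to 21.8 (MOLM-14). The spread between replicate arrays (root mean square SD on the log2 scale) was 0.076 in THP-1, 0.088 in HL-60, 0.134 in MOLM-14 and 0.164 in U937. Replicate 3 of MOLM-14 and replicate 3 of U937 stood apart from the other 2 arrays of their line (correlations of deviations across genes of -0.79 to -0.89, against 0.25 and 0.57 between replicates 1 and 2). Each line filled its own row of the array plate, so plate row and line cannot be told apart. The labels call the replicates biological and do not mention separate cultures, so the spread behind a p-value is that between these arrays, and not the spread between lines. GSK3A, the first targeted gene, had intensities of 32.3, 37.6 and 41.6 in the THP-1 arrays, against a lowest of 39.5, a median of 46.7 and a highest of 57.8 in the 9 other arrays, a difference of -0.35 ± 0.05 (adjusted p = 4.06e-07), while GSK3B had 178, 186 and 195 in the THP-1 arrays, against a lowest of 140.2, a median of 170.4 and a highest of 204 in the 9 other arrays, a difference of 0.10 ± 0.08 (adjusted p = 0.333).

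The monocytic name of the line was borne out by some of its markers and not by others. Of 12 monocytic markers 9 were measured by a probe set of their own, of which 3 were higher, 3 were lower and 3 did not pass the test. TYROBP, the adaptor that passes on signals of activating receptors, had intensities of 1153, 1166 and 1189.8 in the THP-1 arrays, against a lowest of 149, a median of 317 and a highest of 792 in the 9 other arrays. CSF1R, the receptor for macrophage growth factor, had 41.4, 39.5 and 39.7 in the THP-1 arrays, against a lowest of 10.4, a median of 13.4 and a highest of 19.2 in the 9 other arrays. For both genes the THP-1 arrays lay above all others, with differences of 1.75 ± 0.09 (adjusted p = 8.56e-16) for TYROBP and 0.83 ± 0.07 (adjusted p = 1.32e-11) for CSF1R. CD68, a protein of the macrophage lysosome, was also higher (0.67 ± 0.11 (adjusted p = 7.87e-06)). CD14, the lipopolysaccharide co-receptor of mature monocytes, averaged 13.2 ± 1.30 in THP-1, 262 ± 10.2 in HL-60, 9.77 ± 0.81 in MOLM-14 and 7.82 ± 0.89 in U937 (mean intensity ± SD, n = 3 each), and the scavenger receptor CD163 had intensities of 6.18, 7.35 and 6.85 in the THP-1 arrays, against a lowest of 7.10, a median of 8.01 and a highest of 9.42 in the 9 other arrays. CD14 was therefore near the floor in 3 of the lines and bright in HL-60 alone. Its overall difference of -0.93 ± 0.06 (adjusted p = 3.12e-14) reversed to 0.23 (adjusted p = 0.00381) when HL-60 was left out of the average. The costimulatory gene CD86 was lower (6.46, 7.19 and 7.89 in THP-1, lowest 9.83, median 37.3, highest 77.5 in the 9 others). FCN1, the lectin ficolin 1, was lower as well (-0.64 ± 0.12 (adjusted p = 3.68e-05)), with 14.1, 14.8 and 11.4 in the THP-1 arrays, against a lowest of 13.4, a median of 21.1 and a highest of 80.4 in the 9 other arrays, so these overlapped. CD4, a coreceptor that monocytes share with T cells, did not pass the test (-0.15 ± 0.13 (adjusted p = 0.366)), and ITGAM, an integrin chain of myeloid cells, did not pass the test (0.12 ± 0.11 (adjusted p = 0.385)), although it did when MOLM-14 was left out of the average (0.37, adjusted p = 0.00449).

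The summed intensity of the 9 monocytic markers was 1442 to 1477 in the THP-1 arrays, against 1201 to 1331 in HL-60, 632 to 665 in MOLM-14 and 391 to 442 in U937. TYROBP made up most of the THP-1 sum. Without it, a sum added after seeing the data, the other 8 markers summed to 288 to 292 in THP-1, against 494 to 539 in HL-60, 315 to 339 in MOLM-14 and 239.9 to 272 in U937, so that THP-1 stood below HL-60 and MOLM-14. CD14, bright in HL-60 alone, gave up to 274 of the HL-60 sum, against 12.2 to 14.7 in THP-1. Such a sum is set by its brightest probe sets and does not weigh the markers equally. The 6 granulocytic precursor markers summed to 9334 to 9795 in THP-1, within the range of the other arrays (7064 to 15715). Sums in THP-1 were 22.4 to 24.5 for 3 erythroid markers, 36.4 to 42.1 for 3 megakaryocytic markers, 25.8 to 31.1 for 3 B cell markers and 33.6 to 39.9 for 3 stromal or epithelial markers, and no THP-1 sum of these 4 lineages was above the highest array of another line. The 4 T and NK cell markers summed to 69.9 to 74.6 in THP-1, against 171 to 1157 in the other lines, a range set by NKG7. In such bulk RNA, fewer cells with a transcript and less of it per cell cannot be told apart.

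About as many genes were higher as lower in THP-1. Of the 12165 genes, 2866 were higher (23.6%) and 3158 lower (26.0%) than the mean of the other lines at the threshold, a split of 47.6% higher among the calls. With median scaling in place of quantile normalization the split was 29.1% higher (2609 higher and 6348 lower). With a difference of at least 2-fold the counts were 591 higher (4.86%) and 430 lower (3.53%). Apart from all other control arrays were 498 genes on the high side (4.09%) and 361 on the low side (2.97%). Counted in the same way without a test, HL-60 had 189 genes above and 289 below all other control arrays, MOLM-14 251 and 151, and U937 360 and 299. Over all genes the control profile of THP-1 correlated at 0.949 with MOLM-14, 0.931 with HL-60 and 0.924 with U937, and the other lines correlated at 0.943 to 0.952 with each other. These correlations run across genes that share arrays, so they describe the profiles only.

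Secreted proteins follow first among the genes that stood farthest above every other line, a grouping made after their values were seen. TGFBI, a secreted adhesion protein of the matrix that is induced by TGF-beta, had intensities of 1189, 1174 and 1073 in the THP-1 arrays, against a lowest of 7.12, a median of 7.96 and a highest of 10.1 in the 9 other arrays. NID1, the basement membrane protein nidogen, had 745, 671 and 639.7 in the THP-1 arrays, against a lowest of 4.15, a median of 4.74 and a highest of 5.54 in the 9 other arrays. Both genes were at or under 10.1 on every array of another line, and the differences were 5.59 ± 0.04 (adjusted p = 2.62e-34) for TGFBI and 5.06 ± 0.04 (adjusted p = 2.63e-34) for NID1. SERPINF1, which codes for pigment epithelium-derived factor, had 1156, 984 and 971 in the THP-1 arrays, against a lowest of 7.08, a median of 8.66 and a highest of 27.1 in the 9 other arrays, and AGT, the precursor of angiotensin, had 1377, 1241 and 1306 in the THP-1 arrays, against a lowest of 10.9, a median of 29.0 and a highest of 81.8 in the 9 other arrays. TIMP3, an inhibitor of matrix metalloproteinases, differed by 3.85 ± 0.05 (adjusted p = 1.47e-29), and COL9A2, a chain of collagen IX, by 4.32 ± 0.11 (adjusted p = 8.27e-23).

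The largest difference of any gene was that of CA2, carbonic anhydrase 2. Its intensity was 7132, 6751 and 7776 in the THP-1 arrays, against a lowest of 5.45, a median of 45.8 and a highest of 285 in the 9 other arrays, a difference of 6.75 ± 0.19 (adjusted p = 1.13e-21). The other lines were unequal here, with 264 ± 25.0 in HL-60, 37.7 ± 16.4 in MOLM-14 and 5.92 ± 0.69 in U937 (SD, n = 3 each). CA2 is abundant in red cell precursors and in osteoclasts, and no other of the 17 measured erythroid genes was higher in THP-1. Of the 17, 6 were lower (35.3%, against 26.0% of all genes). BEX3, a small X-linked adaptor protein of neurotrophin receptor signalling, had 872, 1046 and 1077 in the THP-1 arrays, against a lowest of 5.20, a median of 7.03 and a highest of 8.18 in the 9 other arrays. TWIST1, a basic helix-loop-helix transcription factor of mesoderm, had 447, 459 and 452 in the THP-1 arrays, against a lowest of 5.52, a median of 6.26 and a highest of 26.9 in the 9 other arrays. PLS3, an actin-bundling plastin, and ROBO1, a receptor for SLIT guidance cues, differed by 4.07 ± 0.05 (adjusted p = 1.14e-30) and 3.53 ± 0.07 (adjusted p = 2.82e-25). For each of these genes the lowest THP-1 array was far above the highest array of another line.

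Aldo-keto reductases formed a pair among the leading genes. AKR1C1 had intensities of 559, 598 and 595 in the THP-1 arrays, against a lowest of 9.33, a median of 11.1 and a highest of 30.0 in the 9 other arrays, and AKR1C2 had 603, 681 and 752 in the THP-1 arrays, against a lowest of 7.89, a median of 10.9 and a highest of 23.8 in the 9 other arrays. Both reduce steroids and other carbonyl compounds, their sequences are close to identical, and their probe sets may share signal. Of 23 oxidant response and metallothionein genes, 9 were higher (39.1%, against 23.6% of all genes) and 5 lower (21.7%, against 26.0%). Their median was -0.03 against -0.02 over all genes. Besides AKR1C1, ME1 (malic enzyme) was higher by 2.43 and NQO1 by 1.24, although ME1 had 2 of 3 probe sets in that direction and the other at -0.02.

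**Figure D1:**
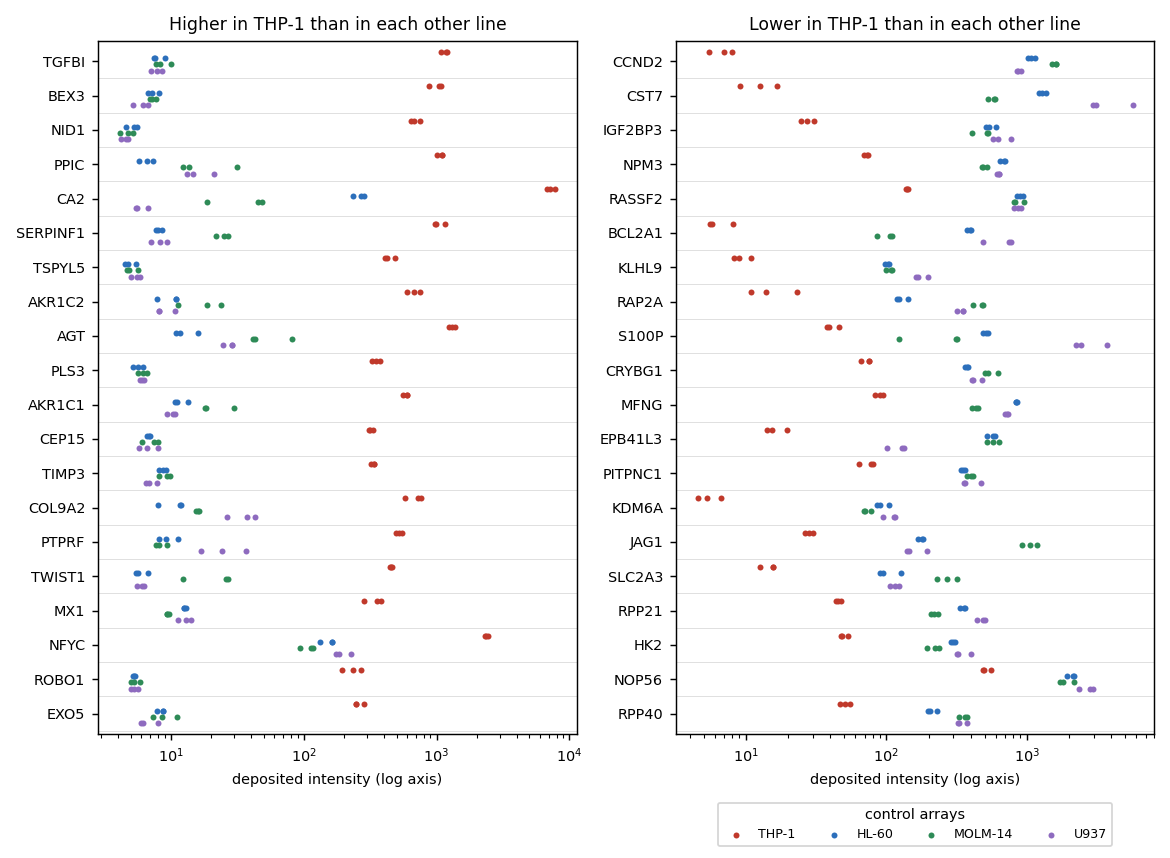
Deposited intensity on a log axis of the 20 genes farthest above (left) and the 20 farthest below (right) every other line, 1 point per control array, with 3 arrays each of THP-1, HL-60, MOLM-14 and U937. The THP-1 points of TGFBI lie at 1073 to 1189, against 7.12 to 10.1 in the other lines, and those of CCND2 lie at 5.46 to 7.91, against 856 to 1626 in the other lines.

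CCND2, which codes for cyclin D2 and drives cells from G1 into S phase, was the gene farthest below every other line. Its intensities were 5.46, 7.91 and 6.99 in the THP-1 arrays, against a lowest of 856, a median of 1078 and a highest of 1626 in the 9 other arrays, a difference of -5.64 ± 0.10 (adjusted p = 5.75e-26). The other 2 D-type cyclins did not pass the test, with differences of -0.04 ± 0.11 (adjusted p = 0.8) for CCND1 and 0.12 ± 0.10 (adjusted p = 0.36) for CCND3. CST7, cystatin F, an inhibitor of lysosomal cysteine proteases in immune cells, had 16.6, 9.04 and 12.7 in the THP-1 arrays, against a lowest of 532, a median of 1286 and a highest of 5669 in the 9 other arrays. IGF2BP3, an oncofetal RNA-binding protein, had 24.7, 27.1 and 30.3 in the THP-1 arrays, against a lowest of 409.9, a median of 537 and a highest of 773 in the 9 other arrays. The THP-1 arrays lay below all others for each of these genes.

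BCL2A1, an anti-apoptotic member of the BCL2 family and a target of NF-kB, had intensities of 8.06, 5.6 and 5.76 in the THP-1 arrays, against a lowest of 85.6, a median of 391 and a highest of 776 in the 9 other arrays, a difference of -3.79 ± 0.16 (adjusted p = 3.69e-17). Of the 24 apoptosis regulators measured, 12 were higher, against 23.6% of all genes, and 7 lower (29.2%, close to the 26.0% of all genes). Their median was 0.14 against -0.02 over all genes. The death receptor gene FAS was lower (-1.49 ± 0.09 (adjusted p = 6.76e-14)), and the anti-apoptotic MCL1 was higher (0.94 ± 0.06 (adjusted p = 5.99e-14)), in 4 of its 5 probe sets. RASSF2, a tumour suppressor that binds RAS, had 141, 137 and 142 in the THP-1 arrays, against a lowest of 807, a median of 865 and a highest of 958 in the 9 other arrays. RASSF2 lies in a run of lower genes on chromosome 20 described under other observations. RAP2A, a small GTPase, differed by -3.22 ± 0.08 (adjusted p = 3.48e-22), but by only -0.06 at the other of its 2 probe sets. The calcium-binding S100P differed by -3.70 ± 0.31 (adjusted p = 6.01e-11). S100P averaged 40.8 ± 4.28 in THP-1, 509.9 ± 20.4 in HL-60, 251 ± 111 in MOLM-14 and 2787 ± 790.1 in U937 (mean intensity ± SD, n = 3 each), so its level spread widely among the other lines, all of whose arrays lay above THP-1.

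Interferon-stimulated genes stood higher in THP-1 as a group. Of the 36 measured, 32 were higher (88.9%, against 23.6% of all genes) and 2 lower (5.56%, against 26.0%), with a median of 1.51 against -0.02 over all genes. At least 2-fold higher were 24, against 4.86% of all genes, and 21 of these were apart from all other control arrays, against 4.09% of all genes. The median was 1.79 against HL-60, 1.11 against MOLM-14 and 1.40 against U937, and these values share the 3 THP-1 arrays. Promoters of genes that respond to type I interferon are known for an element with repeats of GAAA. The promoters of the 3 genes with the largest differences follow, because these genes lead the group: 250 bases before to 50 bases after the annotated start, from RefSeq (GRCh38.p14), 5′ to 3′ on the gene's strand, with each match to GAAANNGAAA in capitals.
MX1: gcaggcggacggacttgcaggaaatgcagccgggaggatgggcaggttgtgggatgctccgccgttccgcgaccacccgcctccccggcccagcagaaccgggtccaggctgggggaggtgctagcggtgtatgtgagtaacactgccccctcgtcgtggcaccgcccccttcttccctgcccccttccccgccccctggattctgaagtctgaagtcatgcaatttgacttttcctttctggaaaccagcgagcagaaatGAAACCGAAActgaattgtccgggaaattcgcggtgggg
IFITM3: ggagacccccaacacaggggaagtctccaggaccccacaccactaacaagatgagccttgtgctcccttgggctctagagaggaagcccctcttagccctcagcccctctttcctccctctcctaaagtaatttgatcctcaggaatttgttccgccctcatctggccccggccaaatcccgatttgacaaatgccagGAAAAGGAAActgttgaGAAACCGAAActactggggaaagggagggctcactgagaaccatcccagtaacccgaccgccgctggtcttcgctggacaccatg
IFI6: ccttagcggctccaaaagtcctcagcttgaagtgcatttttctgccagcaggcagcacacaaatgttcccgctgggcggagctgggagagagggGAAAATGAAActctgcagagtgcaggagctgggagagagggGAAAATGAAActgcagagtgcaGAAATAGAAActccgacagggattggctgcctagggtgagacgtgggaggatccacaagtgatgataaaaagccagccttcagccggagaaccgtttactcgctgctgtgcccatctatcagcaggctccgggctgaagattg

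These windows lie at chr21:41420308-41420607 on the plus strand for MX1, at chr11:320811-321110 on the minus strand for IFITM3 and at chr1:27672143-27672442 on the minus strand for IFI6. The motif GAAANNGAAA was searched on both strands of each window of 300.0 bases, with overlapping matches counted. MX1 had 1 match, IFITM3 2 and IFI6 3. Of the interferon-stimulated genes measured, 27 had a promoter in the RefSeq table, and 18 of these (66.7%) held at least 1 match, against 283 of the promoters of 9693 measured genes (2.92%) and 997 of all 27305 promoters in the table (3.65%). A match is a description of the letters in this window. IRF9 and OAS1 had no match, and HERC5, which was lower in THP-1, had 3.

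MX1, a GTPase that blocks replication of RNA viruses, had intensities of 287, 355 and 383 in the THP-1 arrays, against a lowest of 9.31, a median of 12.5 and a highest of 14.3 in the 9 other arrays, a difference of 3.68 ± 0.08 (adjusted p = 3.53e-24). IFI6, a mitochondrial protein that protects cells from apoptosis, had 1027, 994 and 972 in the THP-1 arrays, against a lowest of 29.3, a median of 45.7 and a highest of 206 in the 9 other arrays (3.57 ± 0.12 (adjusted p = 1.65e-19)). IFITM3, which stops viruses from fusing with endosomes, had 2139.6, 2420.4 and 2479.6 in the THP-1 arrays, against a lowest of 51.4, a median of 209 and a highest of 436 in the 9 other arrays (3.60 ± 0.07 (adjusted p = 1.65e-24)). All 3 genes had every THP-1 array above every other array. IFITM1 and IFITM2 are close copies of IFITM3 and their probe sets may share signal. IFITM1 differed by 2.85 ± 0.20 (adjusted p = 1.19e-12) and was apart. IFITM2, with 1594 ± 127 in THP-1, 138 ± 4.83 in HL-60, 757 ± 82.3 in MOLM-14 and 1979 ± 379 in U937 (mean intensity ± SD, n = 3 each), did not stand above U937, where its mean was the highest of the 4 lines.

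IRF9, the DNA-binding subunit of the interferon-activated complex, had 549.9, 521 and 552 in the THP-1 arrays, against a lowest of 39.6, a median of 43.7 and a highest of 79.0 in the 9 other arrays, a difference of 3.03 ± 0.10 (adjusted p = 4.81e-20). IRF7, a regulator that amplifies interferon production, was higher by 1.65 and apart. Members of the IFIT family, which bind foreign RNA, were higher: IFIT1 by 2.71, IFIT3 by 1.64, IFIT2 by 1.10 and IFIT5 by 0.98. So were the oligoadenylate synthetases, which activate RNase L, with differences of 2.68 for OAS2, 2.65 for OAS3, 1.97 for OAS1 and 0.55 for OASL. The other of 2 OAS2 probe sets gave 0.18. IFI27 and IFI44L were dim in the other lines. IFI27 had 92.4, 109.8 and 92.0 in THP-1 (lowest 6.02, median 7.61, highest 8.74 in the 9 others), and IFI44L was higher by 1.36.

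The group did not move as 1 in every line. MX2 averaged 184 ± 5.12 in THP-1, 20.4 ± 4.08 in HL-60, 14.1 ± 3.66 in MOLM-14 and 472 ± 11.7 in U937 (mean intensity ± SD, n = 3 each), so that THP-1 stood above HL-60 and MOLM-14 and below U937. XAF1 averaged 356 ± 24.6 in THP-1, 41.4 ± 9.87 in HL-60, 307 ± 68.8 in MOLM-14 and 31.7 ± 12.8 in U937, with little distance between THP-1 and MOLM-14 (difference 0.20, adjusted p = 0.451). TRIM22, which averaged 199.5 ± 21.6 in THP-1 against 1029.6 ± 144 in MOLM-14, did not pass the test (-0.05 ± 0.10 (adjusted p = 0.747)). Guanylate-binding proteins, which respond mostly to interferon gamma, did not follow the others: GBP1 did not pass the test (-0.06 ± 0.03 (adjusted p = 0.0607)) and GBP2 was lower (-0.30 ± 0.06 (adjusted p = 1.30e-04)). HERC5, the ligase that attaches ISG15 to proteins, was the other member that was lower (-0.43 ± 0.15 (adjusted p = 0.0169)), while ISG15 was higher (2.13 ± 0.16 (adjusted p = 7.40e-12)).

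Of 16 MHC class I and immunoproteasome genes 9 were higher (56.2%) and 5 lower (31.2%), with a median of 0.23, against 23.6% higher and 26.0% lower among all genes. Higher were the peptide transporter genes TAP1 (1.08) and TAP2 (1.21), the immunoproteasome subunits PSMB9 (1.34), PSMB8 (0.67) and PSMB10 (0.66), and the peptide-trimming ERAP1 (1.74), with 4 of the 6 ERAP1 probe sets and 2 of the 3 TAP2 probe sets in that direction. Only 1 probe set of ERAP1 and 1 of TAP2 were at least 2-fold higher. The heavy chain genes HLA-B (-0.43), HLA-C (-0.51) and HLA-E (-0.63) were lower. ERAP2, which averaged 8.88 ± 0.44 in THP-1, 72.8 ± 4.69 in HL-60, 109 ± 11.99 in MOLM-14 and 8.95 ± 0.53 in U937 (SD, n = 3 each), was near the floor in THP-1 and U937. HLA genes are similar in sequence, and their probe sets may share signal.

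**Figure D2:**
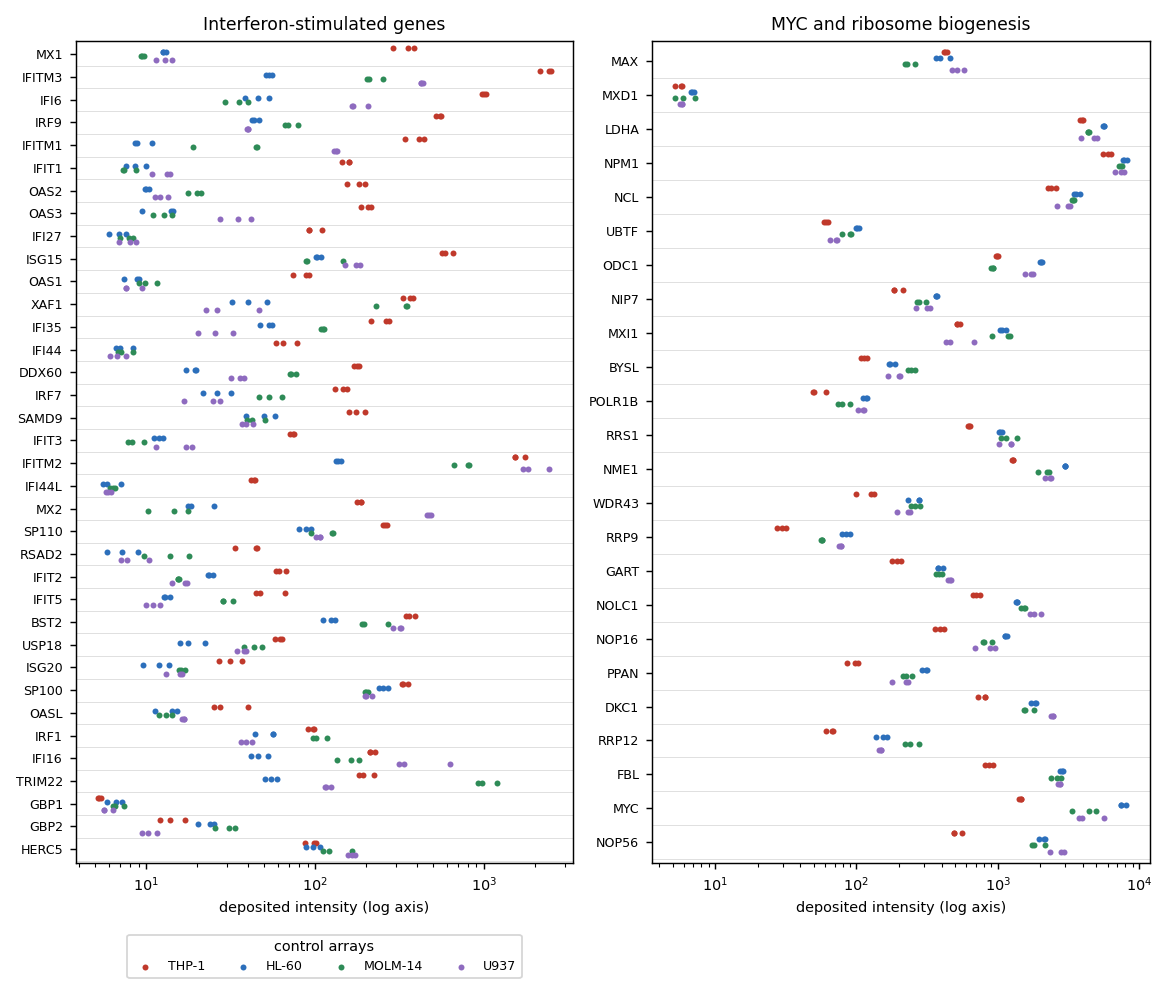
Deposited intensity on a log axis of the 36 measured interferon-stimulated genes (left) and the 24 measured MYC and ribosome biogenesis genes (right), 1 point per control array and 3 arrays per line, sorted by the difference between THP-1 and the other lines. THP-1 points lie to the right for MX1 (287 to 383, against 9.31 to 14.3 in the other lines) and to the left for MYC (1419 to 1472, against 3349 to 8043).

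MYC and the genes that build ribosomes stood lower in THP-1. Of 24 measured genes of this list 22 were lower (91.7%, against 26.0% of all genes) and 1 was higher (4.17%, against 23.6%). Their median was -0.87 against -0.02 over all genes, and 10 were at least 2-fold lower and apart, against 2.97% of all genes. MYC, the transcription factor that drives ribosome production and growth, had intensities of 1466, 1472 and 1419 in the THP-1 arrays, against a lowest of 3349, a median of 4972 and a highest of 8043 in the 9 other arrays, a difference of -1.80 ± 0.18 (adjusted p = 1.84e-09). NOP56, a core protein of the box C/D particles that methylate ribosomal RNA, had 492, 557 and 487 in the THP-1 arrays, against a lowest of 1737, a median of 2155 and a highest of 2937 in the 9 other arrays (-2.04 ± 0.08 (adjusted p = 1.04e-18)), and FBL, the methyltransferase of the same particles, had 927, 869.5 and 814 in the THP-1 arrays, against a lowest of 2377, a median of 2775 and a highest of 2895 in the 9 other arrays (-1.60 ± 0.07 (adjusted p = 1.57e-17)). No THP-1 array of these 3 genes reached the lowest array of another line. NOP56 lies in a run of lower genes on chromosome 20 described under other observations. The median of the list was -1 against HL-60, -0.96 against MOLM-14 and -0.83 against U937.

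The pseudouridine synthase DKC1 (-1.27), the processing factors RRP12 (-1.30, in 2 of 3 probe sets), PPAN (-1.26), NOP16 (-1.21), NOLC1 (-1.13) and RRP9 (-1.01) and the purine synthesis gene GART (-1.03) were the other members of the 10. Another probe set of NOP16 gave -0.03, and another of GART gave -0.02. Only 1 RRP12 probe set was at least 2-fold lower. Abundant nucleolar proteins moved less, with differences of -0.32 for NPM1 and -0.43 for NCL. The MYC partner MAX was the member that was higher (0.21 ± 0.08 (adjusted p = 0.0425)), and the antagonist MXD1 was dim in all lines and did not pass the test. Outside the list, 3 genes of nucleolar or RNA processing function were among the 20 farthest below every other line. NPM3, a nucleoplasmin that helps ribosomal RNA maturation, had 73.1, 69.3 and 74.2 in the THP-1 arrays, against a lowest of 477, a median of 630.3 and a highest of 705 in the 9 other arrays (-2.84 ± 0.09 (adjusted p = 7.04e-20)). RPP21 and RPP40, subunits of the ribonuclease P complex that trims transfer RNA, differed by -2.55 ± 0.07 (adjusted p = 5.22e-22) and -2.28 ± 0.10 (adjusted p = 2.13e-17).

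Most cell cycle genes did not pass the test. Of 38, 12 were lower (31.6%, close to the 26.0% of all genes), 3 were higher (7.89%, against 23.6%) and 23 did not pass, with a median of -0.25. In the hairpin arrays 11 were higher and 10 lower, with a median of -0.02, where 27.2% of all genes were higher and 34.3% lower. PCNA, the sliding clamp of replication, had 838, 815 and 734 in the THP-1 arrays, against a lowest of 1806, a median of 2360.2 and a highest of 3417 in the 9 other arrays (-1.54 ± 0.08 (adjusted p = 2.88e-15)), and AURKB, a mitotic kinase, differed by -1.14 ± 0.16 (adjusted p = 4.78e-07). PCNA lies in a run of lower genes on chromosome 20 described under other observations. CDC20, the activator of the anaphase-promoting complex, was higher (1.61 ± 0.25 (adjusted p = 4.62e-06)), and it lies in the stretch of chromosome 1 described further on. MKI67 and TOP2A, markers of cycling cells, did not pass the test (-0.25 ± 0.23 (adjusted p = 0.402) and 0.26 ± 0.12 (adjusted p = 0.0869)). Of 19 p53 target genes 9 were lower (47.4%) and 3 higher (15.8%), with a median of -0.24 that turned to 0.065 when MOLM-14 was left out of the average. TIGAR, a regulator of glycolysis, averaged 18.8 ± 0.83 in THP-1, 66.2 ± 9.12 in HL-60, 189 ± 22.6 in MOLM-14 and 122 ± 19.1 in U937 (mean intensity ± SD, n = 3 each), and FAS, TNFRSF10B and TRIAP1 were also apart on the low side.

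Of 27 hypoxia and glycolysis genes 13 were lower (48.1%, against 26.0% of all genes) and 4 higher (14.8%, against 23.6%), with a median of -0.27. In the hairpin arrays 15 were lower and 4 higher, with a median of -0.19, where 34.3% of all genes were lower and 27.2% higher. SLC2A3, a high-affinity glucose transporter, had 15.5, 15.6 and 12.6 in the THP-1 arrays, against a lowest of 90.6, a median of 123 and a highest of 317 in the 9 other arrays (-2.46 ± 0.12 (adjusted p = 1.10e-15)). HK2, the hexokinase that traps glucose in the cell, had 47.7, 53.5 and 48.3 in the THP-1 arrays, against a lowest of 195, a median of 299 and a highest of 398 in the 9 other arrays (-2.23 ± 0.12 (adjusted p = 3.37e-15)). GPI, the next enzyme of the pathway, differed by -1.54 ± 0.07 (adjusted p = 2.25e-17), and these 3 genes were apart from all other control arrays. The transporter SLC2A1 was higher by 0.89 in 1 of its 2 probe sets, and it too lies in the chromosome 1 stretch.

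Some of the genes that stood far above the other lines, among them COL9A2, PTPRF, NFYC and EXO5, lay together on chromosome 1, a pattern chosen after the values were seen. Genes were put in the order of RefSeq (GRCh38.p14), and 6137 of them reached a mean intensity of 64 in at least 1 line. Among these, 28 consecutive genes from MACF1 to KDM4A were all higher in THP-1 than the mean of the other lines. Their median difference was 1.86, with a range of 0.61 to 4.32, and 24 were at least 2-fold higher. Not every one stood above each line, since MACF1 averaged 514 in THP-1 and 516 in MOLM-14. The next genes on either side had differences below 0, -0.64 for NDUFS5 and -0.43 for IPO13. The longest other run of higher genes held 12 (IRF1 to JADE2 on chromosome 5, median 0.56), and the longest run of lower genes held 15 (VDR to MCRS1 on chromosome 12, median -0.53). With no filter on dim genes the longest run was part of the same stretch, 14 genes from PPIE to SCMH1 with a median of 2.38. Copy number was not analysed here.

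The stretch holds genes of unlike function. NFYC, a subunit of the CCAAT-binding factor, had intensities of 2322, 2356 and 2418 in the THP-1 arrays, against a lowest of 93.7, a median of 164 and a highest of 226 in the 9 other arrays, and all 4 of its probe sets were higher. RLF, a zinc finger protein whose gene is found fused to MYCL in lung cancers, averaged 1815 in THP-1, against 137 in HL-60, 98.7 in MOLM-14 and 164 in U937, a difference of 3.63 (adjusted p = 9.16e-25). ZMPSTE24, the protease that matures lamin A, averaged 5089.6 in THP-1, against 719.7 in HL-60, 518 in MOLM-14 and 801 in U937. PPT1, a lysosomal thioesterase, averaged 8548 in THP-1, against 1488 in HL-60, 1181 in MOLM-14 and 2549.7 in U937. MYCL, a proto-oncogene of the MYC family, averaged 126 in THP-1, against 36.6 in HL-60, 53.7 in MOLM-14 and 32.5 in U937, a difference of 1.27 (adjusted p = 2.74e-09). EXO5, a nuclease of DNA repair, had 246, 282 and 249.6 in the THP-1 arrays, against a lowest of 5.99, a median of 8.01 and a highest of 11.2 in the 9 other arrays, and PTPRF, a receptor tyrosine phosphatase, had 498, 519 and 551 in the THP-1 arrays, against a lowest of 7.77, a median of 9.44 and a highest of 37.1 in the 9 other arrays. These genes were apart in THP-1, while YBX1, which is bright in every line, was higher by 0.70 and not apart.

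**Figure D3:**
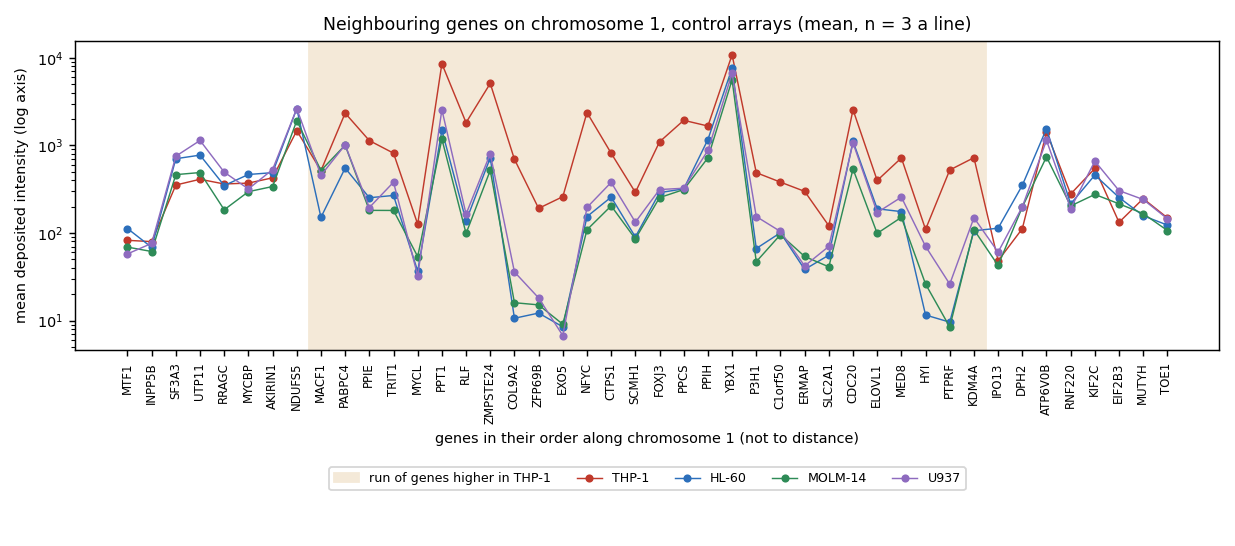
Mean deposited intensity on a log axis (n = 3 control arrays per line) of neighbouring chromosome 1 genes in their order along the chromosome, not to distance, with the run of 28 genes shaded. THP-1 lies above the other lines throughout most of the shaded stretch, for example at COL9A2, NFYC, RLF, EXO5 and PTPRF, and does not stand above them at NDUFS5 and IPO13.

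Several genes of known tumour suppressor regions were near the floor in THP-1. KLHL9, an adaptor of a ubiquitin ligase, had intensities of 8.26, 10.8 and 8.98 in the THP-1 arrays, against a lowest of 97.5, a median of 107 and a highest of 197 in the 9 other arrays (-2.47 ± 0.06 (adjusted p = 6.61e-23)). It lies on chromosome 9 near MTAP and CDKN2A. MTAP, which salvages methionine and adenine, had 7.92, 8.35 and 7.09 in the THP-1 arrays, against a lowest of 28.5, a median of 40.2 and a highest of 77.8 in the 9 other arrays (-1.43 ± 0.10 (adjusted p = 1.27e-12)). Of its 5 probe sets 4 were lower, but only 2 by at least 2-fold. CDKN2A, which codes for an inhibitor of cyclin-dependent kinases, averaged 9.11 ± 1.19 in THP-1, 64.4 ± 3.73 in HL-60, 9.12 ± 0.78 in MOLM-14 and 465 ± 16.5 in U937 (mean intensity ± SD, n = 3 each), and THP-1 did not differ from MOLM-14 beyond the spread (difference 0.02, adjusted p = 0.827). CDKN2B was dim in all lines and did not pass the test. KDM6A, an X-linked demethylase of histone H3, had 5.26, 4.53 and 6.66 in the THP-1 arrays, against a lowest of 69.0, a median of 89.95 and a highest of 116 in the 9 other arrays (-2.31 ± 0.06 (adjusted p = 2.87e-22)). Of the 17 tumour suppressors and CDKN2A neighbours measured, 7 were lower (41.2%, against 26.0% of all genes) and 3 higher (17.6%, against 23.6%). Their median was -0.05.

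Targets of KMT2A fusions were split. Of 19 measured HOX cluster and KMT2A target genes 7 were higher (36.8%, against 23.6% of all genes) and 2 lower (10.5%, against 26.0%). Their median was 0.02, and HOXA9 had no probe set of its own. MEF2C, a transcription factor tied to stem-like growth in KMT2A leukemias, averaged 1230.2 ± 21.6 in THP-1, 25.0 ± 6.96 in HL-60, 909 ± 132.98 in MOLM-14 and 73.7 ± 9.14 in U937 (mean intensity ± SD, n = 3 each). PBX3, a HOX cofactor, averaged 1193 ± 80.5 in THP-1, 57.2 ± 4.74 in HL-60, 691 ± 58.1 in MOLM-14 and 125 ± 4.77 in U937, and JMJD1C, a jumonji family protein, 487 ± 21.4 in THP-1, 96.4 ± 2.70 in HL-60, 451 ± 36.4 in MOLM-14 and 74.0 ± 14.3 in U937. For all 3 genes both KMT2A-rearranged lines were bright, and THP-1 was above MOLM-14 by 0.41, 0.77 and 0.08 (adjusted p = 0.00478, 2.75e-10 and 0.683). MEIS1, another HOX cofactor, had the opposite sign. It averaged 6.22 ± 0.27 in THP-1, 6.82 ± 0.27 in HL-60, 236 ± 19.6 in MOLM-14 and 535 ± 33.0 in U937, near the floor in THP-1 as in HL-60 (difference -0.01, adjusted p = 0.965), on its single probe set.

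Among myeloid transcription factors, 12 of 28 were higher (42.9%, against 23.6% of all genes) and 9 lower (32.1%, against 26.0%). Their median was 0.09. IRF5, which drives inflammatory cytokines in macrophages, had intensities of 232, 249.9 and 270.0 in the THP-1 arrays, against a lowest of 20.6, a median of 29.2 and a highest of 69.7 in the 9 other arrays (2.36 ± 0.13 (adjusted p = 5.04e-15)). The other of its 2 probe sets gave 0.37. IRF8, a monocyte fate factor, averaged 2137 ± 59.4 in THP-1, 389 ± 34.8 in HL-60, 1890.0 ± 238 in MOLM-14 and 469 ± 107 in U937 (mean intensity ± SD, n = 3 each), bright in THP-1 and MOLM-14. CEBPD, an acute-phase activator, averaged 671 ± 31.8 in THP-1, 488 ± 37.7 in HL-60, 364 ± 27.0 in MOLM-14 and 6.04 ± 0.28 in U937, a difference set mainly by U937. KLF4, which promotes monocyte differentiation, was higher by 1.06 ± 0.12 (adjusted p = 1.32e-08) and apart. NFE2, a factor of erythroid and megakaryocyte cells, had 21.2, 20.5 and 30.6 in the THP-1 arrays, against a lowest of 86.6, a median of 160.2 and a highest of 240.0 in the 9 other arrays (-2.16 ± 0.13 (adjusted p = 2.75e-14)). CEBPE, which turns on secondary granule genes, was near the floor in THP-1 and MOLM-14 (11.3 ± 1.88 and 10.5 ± 0.74) and averaged 185 ± 6.79 in HL-60.

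Receptors of monocytes differed in both directions. Of 26 monocyte and macrophage markers 9 were higher (34.6%, against 23.6% of all genes) and 7 lower (26.9%, close to the 26.0% of all genes). Their median was -0.04. CCR2, the receptor that draws classical monocytes to CCL2, had intensities of 939, 983 and 1020.3 in the THP-1 arrays, against a lowest of 9.13, a median of 162 and a highest of 174 in the 9 other arrays (3.38 ± 0.12 (adjusted p = 5.18e-19)). CX3CR1, the fractalkine receptor of patrolling monocytes, averaged 826 ± 48.6 in THP-1, 23.4 ± 3.72 in HL-60, 492 ± 21.96 in MOLM-14 and 116 ± 25.6 in U937 (mean intensity ± SD, n = 3 each). SIGLEC1, a sialic acid receptor of macrophages that is also induced by interferon, had 139, 119 and 124 in the THP-1 arrays, against a lowest of 7.11, a median of 8.54 and a highest of 11.3 in the 9 other arrays (2.49 ± 0.08 (adjusted p = 3.10e-20)). Each of these 3 receptors was apart in THP-1. CD93 was bright in THP-1 (1105 ± 45.5) and in U937 (2572 ± 140.2) and near the floor in HL-60 (6.01 ± 0.71). Its difference of 1.77 was therefore set mainly by HL-60.

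Among 23 chemokines and chemokine receptors 6 were higher (26.1%, close to the 23.6% of all genes) and 9 lower (39.1%, against 26.0%). CXCL8, the neutrophil attractant interleukin-8, had 15.7, 13.3 and 19.7 in the THP-1 arrays, against a lowest of 21.3, a median of 240.3 and a highest of 2168 in the 9 other arrays (-3.29 ± 0.47 (adjusted p = 9.11e-07)). Of its 9 probe sets 7 were lower, but only 2 by at least 2-fold. CCL2, the ligand of CCR2, averaged 21.1 ± 6.71 in THP-1, 517 ± 82.8 in HL-60, 18.9 ± 3.53 in MOLM-14 and 616 ± 386 in U937 (mean intensity ± SD, n = 3 each). TNF averaged 18.9 ± 5.57 in THP-1, 219.8 ± 30.0 in HL-60, 290.2 ± 15.1 in MOLM-14 and 29.5 ± 7.98 in U937. Transcripts of all 3 inflammatory mediators were therefore dim in THP-1, where MOLM-14 shared the low CCL2 and U937 the low TNF. CXCR4, which holds cells in bone marrow, was lower (-1.68 ± 0.10 (adjusted p = 1.54e-14)), and CCR1 was higher (2.02 ± 0.16 (adjusted p = 2.32e-11)). Of 32 cytokines and cytokine receptors 14 were lower (43.8%, against 26.0% of all genes) and 6 higher (18.8%, against 23.6%). IL6R was higher by 1.15 and TNFRSF1B lower at -1.08.

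Fc receptors and their signalling adaptors were split. Of the 26 measured genes of this list 9 were higher and 9 lower (34.6% each, against 23.6% and 26.0% of all genes), with a median of -0.06. At least 2-fold higher were 7, against 4.86% of all genes, and at least 2-fold lower 5, against 3.53%. FCER1G, the common gamma chain of Fc receptors, had intensities of 1281, 1244 and 1493 in the THP-1 arrays, against a lowest of 16.1, a median of 306 and a highest of 526 in the 9 other arrays (2.90 ± 0.18 (adjusted p = 1.15e-13)). TREM2, a lipid receptor that signals through TYROBP, had 240.3, 233 and 207 in the THP-1 arrays, against a lowest of 9.64, a median of 15.2 and a highest of 31.3 in the 9 other arrays (2.86 ± 0.10 (adjusted p = 2.81e-19)). FCGR2A was higher by 1.31 ± 0.14 (adjusted p = 1.17e-08) and FCGR1A by 1.31 ± 0.29 (adjusted p = 4.73e-04), although FCGR1A has a near-identical pseudogene whose probe set may share its signal. The other of 2 FCGR1A probe sets gave 0.04. These genes were apart in THP-1 on the high side. On the low side CLEC5A, a lectin that also signals through TYROBP, averaged 5.91 ± 0.29 in THP-1, 357 ± 42.9 in HL-60, 5.97 ± 0.61 in MOLM-14 and 397 ± 50.7 in U937 (mean intensity ± SD, n = 3 each), and SIRPA, the receptor for CD47, differed by -1.15 ± 0.08 (adjusted p = 1.19e-12). FCGR2B, the inhibitory Fc receptor, was lower (-1.14 ± 0.30 (adjusted p = 0.00197)), and it averaged 12.99 ± 2.61 in THP-1, 13.9 ± 1.56 in HL-60, 124 ± 52.8 in MOLM-14 and 51.4 ± 25.6 in U937. It was thus dim in THP-1 and HL-60, and FCGR2A, FCGR2B and FCGR2C are close copies whose probe sets may share signal.

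Of 24 scavenger receptor and lipid genes 11 were higher (45.8%, against 23.6% of all genes) and 3 lower (12.5%, against 26.0%), with a median of 0.21. Apart on the high side were 7, against 4.09% of all genes. The median was 0.44 against HL-60, 0.38 against MOLM-14 and 0.03 against U937. ABCA1, which exports cholesterol, had 391, 304 and 428 in the THP-1 arrays, against a lowest of 6.91, a median of 30.6 and a highest of 55.5 in the 9 other arrays (3.24 ± 0.23 (adjusted p = 2.78e-12)). Of its 5 probe sets 4 were higher, but only 2 by at least 2-fold. The nuclear regulator of ABCA1, NR1H3, the liver X receptor alpha, was higher by 1.49 ± 0.08 (adjusted p = 3.56e-15), and APOC1, a target of that receptor, had 183, 178 and 242 in the THP-1 arrays, against a lowest of 9.82, a median of 13.4 and a highest of 34.2 in the 9 other arrays. VLDLR (2.18) and PLIN2 (1.41), a lipoprotein receptor and a coat protein of lipid droplets, were higher too. ABCG1, APOE and LPL did not pass the test. Of 32 cathepsins and lysosomal enzymes 15 were higher (46.9%) and 5 lower (15.6%), with a median of 0.14. This median was 0.24 against HL-60 and 0.59 against MOLM-14, and it turned to -0.16 against U937. In the hairpin arrays 14 were higher and 9 lower, with a median of 0.07, where 27.2% of all genes were higher and 34.3% lower. CTSS, a protease of antigen processing, had 1062, 982 and 1014 in the THP-1 arrays, against a lowest of 168, a median of 202 and a highest of 493 in the 9 other arrays. CTSL (1.74), CTSK (1.5) and CTSO (1.47) were also apart, and CTSD was lower (-0.56).

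Primary granule genes did not form 1 pattern. Of 13 measured 4 were higher (30.8%, against 23.6% of all genes) and 5 lower (38.5%, against 26.0%), with a median of -0.06. MPO, the myeloperoxidase of azurophil granules, averaged 17.7 ± 2.07 in THP-1, 5575 ± 237 in HL-60, 106 ± 24.7 in MOLM-14 and 11.4 ± 0.82 in U937 (mean intensity ± SD, n = 3 each), so that its difference of -3.01 was set by HL-60. The eosinophil granule protein PRG2 averaged 11.4 ± 1.15 in THP-1, 1500.2 ± 67.0 in HL-60, 14.6 ± 1.97 in MOLM-14 and 13.3 ± 0.91 in U937. AZU1, azurocidin, averaged 1149 ± 62.5 in THP-1, 119 ± 11.8 in HL-60, 1045 ± 199 in MOLM-14 and 354 ± 232 in U937, and CFD, complement factor D, had 2320.0, 2032 and 2445 in the THP-1 arrays, against a lowest of 176, a median of 439 and a highest of 1481 in the 9 other arrays (2.04 ± 0.35 (adjusted p = 1.48e-05)). ELANE and CTSG did not pass the test (0.41 ± 0.25 (adjusted p = 0.198) and 0.22 ± 0.28 (adjusted p = 0.551)). THBD, thrombomodulin, an anticoagulant receptor of endothelium and monocytes, had 879, 812 and 831 in the THP-1 arrays, against a lowest of 7.54, a median of 79.9 and a highest of 388 in the 9 other arrays (3.25 ± 0.11 (adjusted p = 5.87e-20)).

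The remaining lists had medians between -0.22 and 0.12. Over all genes 23.6% were higher and 26.0% lower. Of 16 MHC class II and costimulation genes 3 were higher (18.8%), HLA-DRB1 (2.06), HLA-DQB1 (0.86) and CD40 (0.36), and 5 were lower (31.2%). HLA-DRB1 has near-identical copies that may share its signal. Leukocyte integrins and adhesion genes had 12 lower (52.2%) and 7 higher (30.4%) of 23, with ITGA4 at -1.16 and ITGAV at 1.58. The respiratory burst list had 5 higher and 5 lower of 12 (41.7% each). CYBB, the catalytic subunit, averaged 96.5 ± 5.90 in THP-1, 1510.0 ± 16.6 in HL-60, 33.7 ± 10.1 in MOLM-14 and 278 ± 97.7 in U937 (SD, n = 3 each). Of 17 cancer-testis antigens 2 were higher (11.8%) and 0 lower: MAGEB2, with 207, 159 and 176 in the THP-1 arrays, against a lowest of 6.33, a median of 7.57 and a highest of 12.2 in the 9 other arrays, and PRAME, which THP-1 (320.1 ± 25.0) shared with HL-60 (354 ± 30.1). Stem and progenitor genes had 4 higher and 5 lower of 25, with SOX4 at -1.59, KIT at 0.73 and CD34 not past the test (-0.06 ± 0.05 (adjusted p = 0.374)). Lists of megakaryocyte, T and NK, B, mast and epithelial genes had at most 4 called members in either direction. Their shares were at most 15.4% higher and 23.1% lower. They were led by NKG7 (-2.55), a cytotoxic granule gene that is bright in U937.

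Other lists of myeloid and metabolic genes had members on both sides. Among all genes, 23.6% were higher and 26.0% lower. Secondary granule and neutrophil genes had 3 higher and 8 lower of 20 (median -0.08), with haptoglobin (HP) at -1.08 and the peptide receptor FPR1 at -1.03. The Toll-like receptor pathway had 6 higher (25.0%) and 7 lower (29.2%) of 24 (median -0.02), both close to the shares of all genes. TLR2, which senses bacterial lipoproteins, was apart on the high side (1.66 ± 0.13 (adjusted p = 6.74e-12)). Complement and coagulation genes had 5 higher (21.7%) and 8 lower (34.8%) of 23, with the plasminogen activator PLAU lower (-1.22 ± 0.10 (adjusted p = 1.23e-11)). S100 and annexin genes had 7 higher (41.2%) and 4 lower (23.5%) of 17, with ANXA4 at 1.84 and S100A6 at 1.26. Cholesterol and fatty acid synthesis had 5 higher (23.8%) and 7 lower (33.3%) of 21, and the last enzyme of cholesterol synthesis, DHCR7, was lower (-1.30 ± 0.14 (adjusted p = 1.25e-08)). Serine, folate and amino acid response genes had 5 higher (21.7%) and 8 lower (34.8%) of 23, with the stress factor DDIT3 at 1.16 and DDIT4 at -1.07.

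**Figure D4:**
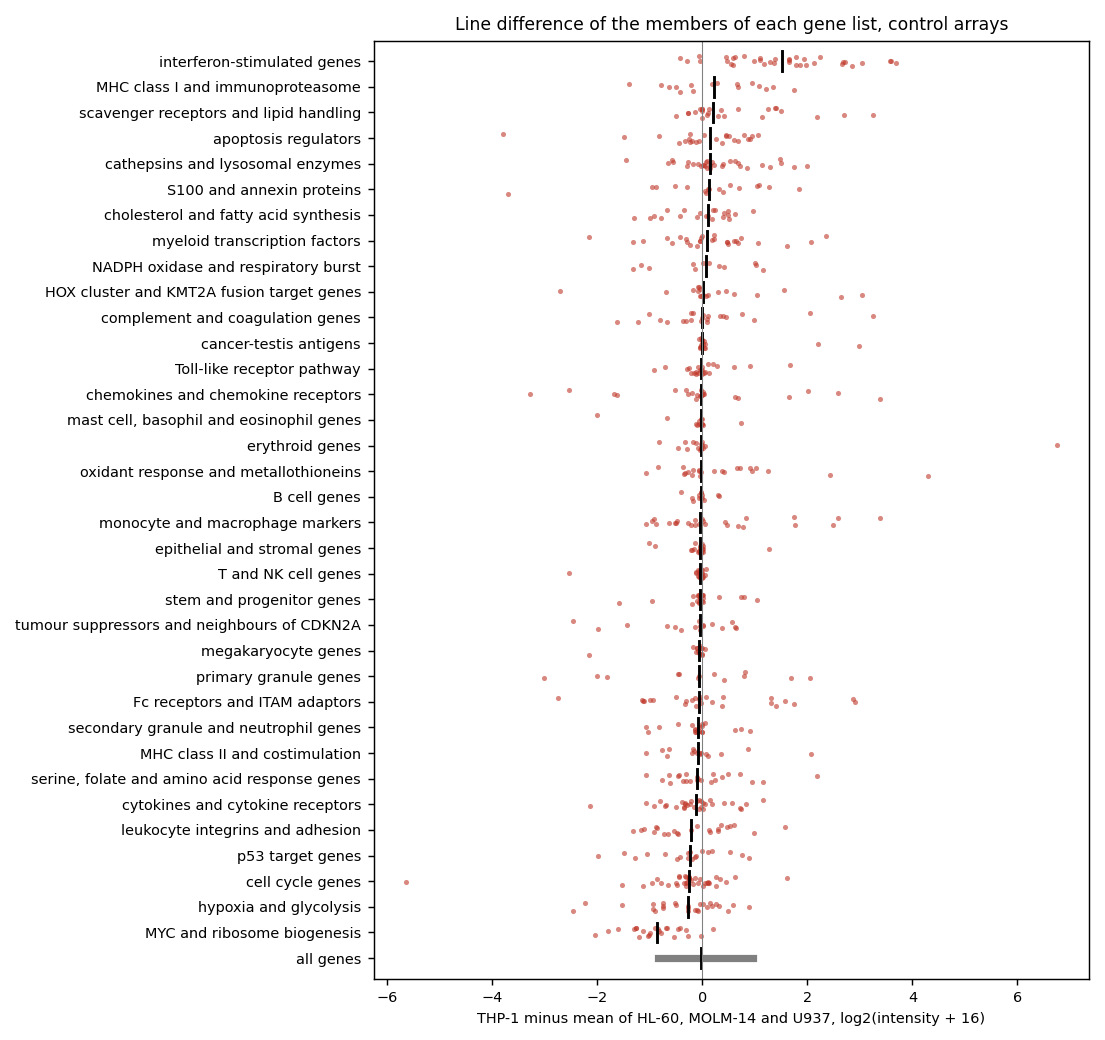
Difference between THP-1 and the mean of the other lines on the scale of log2(intensity + 16), 1 point per measured gene of each list and a bar at the list's median, lists sorted by median. The grey bar spans the 5th to 95th percentile of all 12165 genes (-0.84 to 0.97). Interferon-stimulated genes lie at the top with a median of 1.51 and MYC and ribosome biogenesis genes at the bottom with -0.87.

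Set against each line by itself, THP-1 was nearest to MOLM-14. At least 2-fold differences numbered 772 higher (6.35%) and 594 lower (4.88%) against HL-60, 572 (4.70%) and 507 (4.17%) against MOLM-14, and 804 (6.61%) and 706 (5.80%) against U937. The 3 comparisons share the THP-1 arrays. Against HL-60 the largest differences on the high side were TUBB6 (5.89), a tubulin, CD93 (5.68), RAB13 (5.64), TGFBI (5.61) and PPIC (5.61). On the low side they were MPO (-7.39), CXCL8 (-6.03), PRG2 (-5.75), CCND2 (-5.57) and CST7 (-5.49).

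Against MOLM-14 the high side was led by CA2 (7.15), TGFBI (5.56), BEX3 (5.44), FCER1G (5.08) and NID1 (5.07), and the low side by CCND2 (-6.11), JAG1 (-4.69), a Notch ligand, SOCS2 (-4.48), a feedback inhibitor of cytokine signals, CST7 (-4.37) and EPB41L3 (-4.22). SOCS2 averaged 52.7 ± 5.70 in THP-1, 9.86 ± 0.95 in HL-60, 1447 ± 130.2 in MOLM-14 and 81.8 ± 20.04 in U937 (mean intensity ± SD, n = 3 each), so that THP-1 stood above HL-60. Against U937 the high side was led by CA2 (8.38), SDCBP (6.88), HMGN3 (6.85), LAPTM4B (6.36) and CHI3L1 (5.72), and the low side by CST7 (-7.01), S100P (-5.63), CCND2 (-5.23), BCL2A1 (-4.86) and MEIS1 (-4.60). SDCBP averaged 2913 ± 188 in THP-1, 1537 ± 61.8 in HL-60, 1375 ± 145 in MOLM-14 and 8.85 ± 0.16 in U937, so the U937 contrast came from a line near the floor. CHI3L1, a secreted chitinase-like protein, was also apart in THP-1 (3.11 ± 0.33 (adjusted p = 6.19e-09)).

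The same line difference was then read in the 32 hairpin arrays, which hold none of the control arrays. The group means are separate, but the normalization and the estimate of spread were shared over all 44 arrays. In the hairpin arrays, 3305 genes were higher (27.2%) and 4167 lower (34.3%) in THP-1, and 526 (4.32%) and 364 (2.99%) with at least 2-fold. All 498 genes apart on the high side and all 361 apart on the low side in control arrays passed the test in the same direction in hairpin arrays. The 8 THP-1 hairpin arrays did not overlap the 24 others for 351 and 277 of them. This was not counted over all genes, and these genes were chosen for no overlap in control arrays of the same lines. The median difference of the high genes was 1.45 in hairpin arrays and 1.53 in control arrays, and that of the low genes -1.25 and -1.33. The infected cells are of the same 4 lines, so this repeats the measurement of the lines and not the choice of lines.

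Named genes had close values in both sets of arrays. The difference in hairpin arrays was 5.55 for TGFBI, 6.73 for CA2, -5.39 for CCND2, -1.62 for MYC, 3.90 for MX1 and -2.68 for MEIS1. The interferon list again had 32 higher and 2 lower, with a median of 1.48, and the MYC and ribosome list 23 lower and 1 higher, with a median of -0.77. The cell cycle list had 11 higher and 10 lower in hairpin arrays, with a median of -0.02. Among all genes, 27.2% were higher and 34.3% lower in these arrays. A test of the change itself, hairpin minus control, called 42 of 12165 genes (0.345%), 21 in each direction and 0 by 2-fold, with 1010 genes at an unadjusted p under 0.05. Of the 42, 8 were among the genes apart on the high side and 5 among those on the low side.

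**Figure D5:**
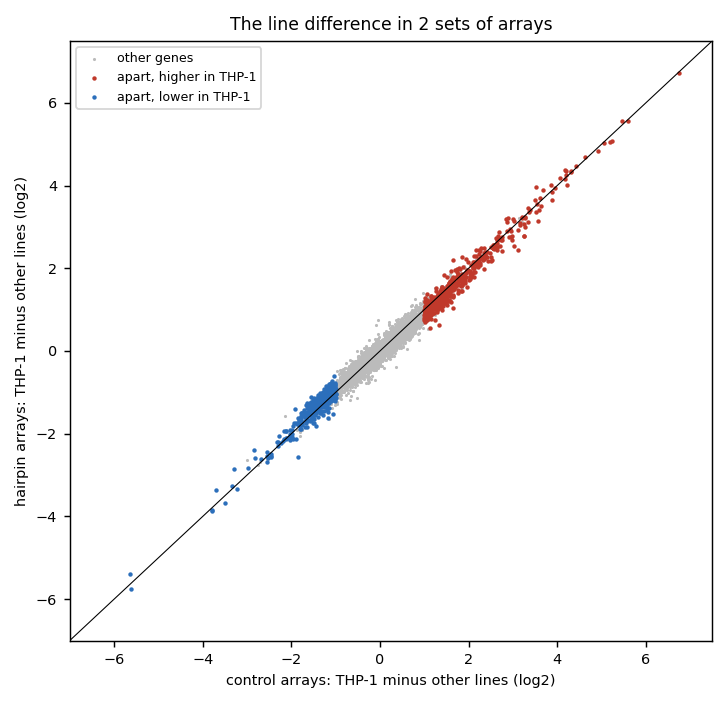
Difference between THP-1 and the other lines (log2 scale) in the 12 control arrays (x axis) and the 32 hairpin arrays (y axis), 1 point per gene, with the line of equal values. Genes apart on the high side (red, 498) and on the low side (blue, 361) keep their sign and lie along the line.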

How the data were processed

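RNA of 4 AML lines was measured on 44 Affymetrix arrays, and the values used are the deposited intensities of 22277 probe sets on a linear scale, which the authors had already normalized. RMA and MAS5 are named in the submitters' processing notes. Which of them gave the deposited table is not given in the sources used here. Intensity ran from 3.40 to 12933, all data columns matched a labelled sample, and no 2 control arrays held the same values. The number of arrays limits the precision.

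Arrays were turned into log2(intensity + 16) and quantile-normalized, since their medians spanned 0.154. Of the probe sets, 62 were controls, 19724 named 1 gene, 568 several and 1923 none. Symbols were updated through Entrez identifiers for 19707. The brightest probe set stood for each of 4505 genes with several, which left 12165 genes. Another probe set of a named gene can lie near 0, for example at -0.08 for JAG1, 0.16 for AKR1C2, 0.06 for CEBPD, 0.01 for PLIN2, -0.09 for SIRPA and -0.05 for SOX4. The limma package (3.58.1, R 4.3.3) fitted a mean for each of 20 groups of line and construct (24 residual degrees of freedom, two-sided, Benjamini-Hochberg adjusted). The code was tested on simulated data. Same-numbered replicates did not deviate together (18 pairs, correlations -0.08 to 0.11), so they were not paired.

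Named genes are the 20 apart on each side with the largest gap to the nearest line, up to 10 members per list with the largest differences (all where 12 or fewer were measured), the 5 largest on each side per line, and a fixed set of markers. Genes of the chromosome 1 stretch, and list members named beyond these, were chosen after their values were seen. The 35 lists, of which 722 different genes were measured, come from general knowledge. Members and lists were chosen with earlier results of these data known. XIST and Y-linked genes were left out. Alternatives tried are the pseudocount, normalization, a filter on dim genes, the mean of probe sets, control arrays alone, plate columns, array weights, a replicate block, and leaving out arrays or lines.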

Additional observations from a re-analysis of the deposited data

Results flagged for a closer look

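1 result drew attention because the line difference was not the same in the hairpin and the control arrays. It is 1 of the 42 genes called for such a change, a number that was unstable across settings. Its own change was not tried under the other settings. ROBO1, a receptor for SLIT guidance cues, was higher in THP-1 than in the other lines by 3.96 in the hairpin arrays and by 3.53 in the control arrays, a change of 0.43 (adjusted p = 0.00937, limma). Its control intensities were 194, 272 and 234 in the THP-1 arrays, against a lowest of 5.04, a median of 5.30 and a highest of 5.92 in the 9 other arrays.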

How the results depend on the processing

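The counts of genes higher and lower in THP-1 and of genes apart stayed within 1.5 times their reported values under most settings. With a pseudocount of 64, which shrinks differences of dim genes, 293 genes were apart on the high side and 202 on the low side, 781, 567 and 864 genes differed by at least 2-fold from HL-60, MOLM-14 and U937, and 483 did so in the hairpin arrays. With median scaling 6348 genes were lower. Under that scaling the median of all genes was -0.10. The number of genes whose line difference changed between hairpin and control arrays (42) was unstable. It was 16 with a pseudocount of 4, 72 with a pseudocount of 64, 18 among genes at 64 or more in 1 line, 181 within plate columns 1 to 6, 747 with array weights, 16, 111 and 197 when HL-60, MOLM-14 or U937 was left out of the average, and 77 without both arrays that stood apart, a setting chosen after seeing the data. Of the genes named as farthest apart or as fixed markers, CD14 alone reversed, to 0.229 without HL-60, and the cause of these shifts was not tested.

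Leaving out 1 control array at a time gave 2596 to 2880 genes higher, 2721 to 3173 lower, 490 to 517 apart on the high side, 357 to 370 on the low side, 1359 to 1374 at least 2-fold from HL-60, 1070 to 1093 from MOLM-14, 1496 to 1570 from U937, 890 throughout in the hairpin arrays, and 15 to 65 changed between hairpin and control arrays (15, 15 and 16 without THP-1 replicates 1, 2 and 3, and 65 without U937 replicate 3). With a replicate block 2893 genes were higher and 3202 lower, and the numbers do not pair the samples. Within plate columns 7 to 11 each line has 1 control array, and differences there have no test of their own. Medians of lists near 0 depended on the filter on dim genes, while the interferon list lay between 0.89 and 1.91 and the MYC and ribosome list between -0.96 and -0.72 over all settings.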

Other observations

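Neighbours of BEX3 on the X chromosome, looked at after the values were seen, also stood far from the other lines. In the gene order of RefSeq (GRCh38.p14), TCEAL9, BEX3, TCEAL4 and TCEAL1, members of a family of small BEX and TCEAL proteins, lie close to each other. Their differences were 3.36 for TCEAL9, 5.47 for BEX3, 2.87 for TCEAL4 and 1.63 for TCEAL1, all apart on the high side in THP-1. BEX1, in the same neighbourhood, was apart on the low side with -2.82, BEX4 had 0.66, and MORF4L2, which follows TCEAL1 among the genes measured, had 0.04. The ARMCX genes nearby, which code for proteins of the mitochondrial outer membrane, gave 2.69 for ARMCX1, 2.34 for ARMCX6 and 1.84 for ARMCX3, against 0.03 for ARMCX2.

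Runs of consecutive lower genes were found on chromosome 20, among genes that reached an intensity of 64 in at least 1 line. They were the 13 genes from CSNK2A1 to ITPA (median -1.10, range -2.04 to -0.66) and the 13 from ADISSP to FERMT1 (median -1.20, range -2.54 to -0.56), with 9 of each at least 2-fold lower in THP-1. NOP56 lies in the run from CSNK2A1 to ITPA, and RASSF2 and PCNA lie in that from ADISSP to FERMT1. On chromosome 6, 10 consecutive genes from EEF1A1 to TTK were higher, with a median of 1.24. These runs were chosen after the values were seen and have no test.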
